A study of Mus musculus with 18 samples.

Results

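De novo lipogenesis, the synthesis of fatty acids from sugar carbon, was followed through 10 genes that carry or regulate it: Srebf1, Mid1ip1, Pklr, Acly, Me1, Acaca, Acacb, Fasn, Elovl6 and Scd1. They are 10 of the 22180 genes measured by a probe that the array's annotation assigns to 1 gene. The 10 were picked by function, and each was read from its probe with the highest mean signal. Mid1ip1 has 3 such probes and each other gene has 1.

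The study asked how the fat content of the diet alters the liver's response to PFOS (perfluorooctanesulfonic acid) and PFNA (perfluorononanoic acid). Both are persistent perfluoroalkyl surfactants. PFOS ends in a sulfonic acid group and PFNA in a carboxylic acid group. Liver RNA of male C57BL6 mice was hybridised to 18 arrays, 1 per sample, with 3 biological replicates in each of 6 groups. The groups were a low-fat diet with 10% of its energy from fat, alone, with PFOS or with PFNA, and a high-fat diet with 45% of its energy from fat, alone, with PFOS or with PFNA. The mice, aged 6 weeks when the diets began, ate freely for 12 weeks and were killed at 18 weeks of age. The sources used here do not give the amounts of PFOS and PFNA, so the compounds are compared as they were administered. Values are signals taken as log2, so that a difference of 1 is a doubling. In whole liver, a smaller number of cells of one type and less RNA per cell cannot be told apart.

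In the liver, glycolysis delivers pyruvate, which mitochondria turn into citrate. ATP citrate lyase splits the exported citrate into acetyl-CoA, acetyl-CoA carboxylase makes malonyl-CoA from it, and fatty acid synthase joins malonyl-CoA units into palmitate with NADPH as the reductant. Elongation and desaturation then give the oleate that is stored as triglyceride. Insulin drives the pathway through the transcription factor SREBP-1c and glucose drives it through ChREBP, which binds paired E-boxes known as carbohydrate response elements. PFOS and PFNA are known activators of the nuclear receptor PPARA, and of CAR, in rodent liver.

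Promoters of 4 of the genes are shown because SREBP and ChREBP are known to act on such regions. Over the 18 arrays Srebf1, Mid1ip1 and Fasn varied together (pairwise Pearson r of 0.645 to 0.828), whereas Pklr did not follow them (-0.0892 to 0.0805). Other members varied more closely, such as Acacb with Me1 (0.94) and Fasn with Acaca (0.919). A link between the promoter letters and these correlations was not tested. Each promoter is the 250 bases before a start site in RefSeq (GRCm38.p6), 5′ to 3′ on the gene's strand. Capitals mark the SREBP core TCACCC, the CCAAT box and the carbohydrate response element, which was searched as CACGNG, 5 bases, CNCGTG. Both strands were searched. Srebf1 is shown at the most downstream of its 3 listed starts (chr11:60210472-60210721, minus strand), Mid1ip1 at its only one (chrX:10717115-10717364, plus strand), Fasn at its only one (chr11:120824548-120824797, minus strand) and Pklr at the more downstream of 2 (chr3:89136373-89136622, plus strand).
Srebf1: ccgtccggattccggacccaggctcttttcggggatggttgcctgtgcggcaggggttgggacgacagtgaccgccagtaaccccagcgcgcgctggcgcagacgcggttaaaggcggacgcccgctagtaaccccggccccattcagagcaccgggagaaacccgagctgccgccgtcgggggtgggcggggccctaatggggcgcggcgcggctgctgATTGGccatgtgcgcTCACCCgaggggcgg
Mid1ip1: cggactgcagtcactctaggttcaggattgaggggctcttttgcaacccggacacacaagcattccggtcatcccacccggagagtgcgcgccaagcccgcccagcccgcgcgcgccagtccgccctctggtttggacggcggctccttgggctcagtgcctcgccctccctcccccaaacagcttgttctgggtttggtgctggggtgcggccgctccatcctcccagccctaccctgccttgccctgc
Fasn: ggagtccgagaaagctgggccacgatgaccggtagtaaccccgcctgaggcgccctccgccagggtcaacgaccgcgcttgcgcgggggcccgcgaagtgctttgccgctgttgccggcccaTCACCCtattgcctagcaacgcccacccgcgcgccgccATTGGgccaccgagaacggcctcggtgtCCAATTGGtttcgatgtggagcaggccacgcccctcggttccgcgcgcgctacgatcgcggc
Pklr: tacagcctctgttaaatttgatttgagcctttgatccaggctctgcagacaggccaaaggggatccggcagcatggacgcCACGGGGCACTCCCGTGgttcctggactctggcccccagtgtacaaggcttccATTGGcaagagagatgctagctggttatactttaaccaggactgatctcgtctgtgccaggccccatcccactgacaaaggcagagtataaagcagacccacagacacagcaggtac

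In these letters Srebf1 holds TCACCC at bases -15 to -10 from its start site, just after an inverted CCAAT box at -30 to -26. Fasn holds TCACCC at -128 to -123 and 3 CCAAT boxes, of which the pair at -62 to -58 and -59 to -55 overlap on opposite strands. Pklr holds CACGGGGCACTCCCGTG at -170 to -154 and an inverted CCAAT box at -117 to -113. Mid1ip1 has no match to the 3 patterns in its window. The listed starts of Srebf1 and Pklr that are not shown hold neither TCACCC nor the carbohydrate response element. Counted over windows of 250 bases before and 50 after a start, the 9 genes that the table lists have 13 windows. TCACCC occurs in 3 of the 13 (23.1%, in 3 genes) and in 16.2% of all 32851 windows. A CCAAT box occurs in 7 of the 13 (53.8%, in 6 genes) and in 37.4% of all windows. The carbohydrate response element occurs in 1 of the 13, that of Pklr shown, and in 15 of the 32851 windows, or 0.0457%. The longer SREBP pattern TCACNCCAC (1.24% of windows) and the PPAR direct repeat, a pair of AGGNCA with 1 base between (0.381%), matched none of the 9. A match is a run of letters and not evidence of binding. Scd1 is named without a promoter.

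The arrays did not separate by group alone. The first principal component of all probes held 17.9% of the variance. It placed the 3 high-fat PFOS arrays, low-fat PFOS replicate 3 and high-fat PFNA replicate 3 between 27.8 and 38.6, and the other 13 arrays between -22.9 and -8.1. These 5 arrays also had the highest mean signal of 11 PPARA-regulated genes, 11.42 to 11.93 against 10.39 to 10.78. Hepatocyte identity was clear, with a mean signal of the 7 measured hepatocyte markers between 11.89 and 12.26 on all arrays. It was lower in the high-fat PFOS arrays, at 11.89 to 11.93, than in the high-fat controls, at 12.16 to 12.26. The median marker difference was -0.34, and 4 of the 7 markers had an unadjusted p below 0.05, beside 13.5% of all probes. The mean of the 6 measured adipocyte markers (of 8 listed) was 5.68 to 5.85 on the 5 arrays and 4.16 to 4.98 on the others. That difference lay in Fabp4 (8.73 to 9.36 against 5.48 to 7.1) and Cidea (9.94 to 11.02 against 4.07 to 7.89). The adipocyte-defining Adipoq was at 2.07 to 2.84 on all 18 arrays. Of 52 measured markers of 10 cell types, limma called none in the diet or exposure comparisons, while 6 to 15 of them had an unadjusted p below 0.05. The share of all probes at that threshold was 6.45% for diet, 11.9% and 12.9% for low-fat PFOS and PFNA, and 13.5% and 9.77% for high-fat PFOS and PFNA. For low-fat PFNA the markers at that threshold included 7 of 7 endothelial (median difference 0.53) and 5 of 7 Kupffer cell markers (0.84). For low-fat PFOS they included 4 (0.37) and 3 (0.58). For diet they included 4 of 7 stellate cell markers (0.57), whose mean was 7.45, 6.36 and 6.7 in high-fat control replicates 1 to 3. The mean endothelial signal was 7.77 to 8.33 in the low-fat controls, 8.4 to 8.73 with PFOS and 8.63 to 8.68 with PFNA, without overlap between controls and either compound. The mean stellate cell signal also did not overlap, at 6.11 to 6.32 in those controls, 6.52 to 6.7 with PFOS and 6.34 to 6.9 with PFNA. Of all single probes, 7.58% with PFOS and 10.1% with PFNA were higher without overlap on that diet. The part of these marker differences in the lipogenic values was not tested.

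Srebf1, which encodes the SREBP-1 precursors, was higher in every PFOS and PFNA array than in any control array of the same diet. On the low-fat diet it read 8.12, 7.81 and 7.94 in the controls, 8.64, 8.88 and 9.05 with PFOS, and 8.51, 8.92 and 8.13 with PFNA. The high-fat controls read 8.37, 7.54 and 7.48, against 9.4, 8.65 and 9.14 with PFOS and 8.77, 9.09 and 8.96 with PFNA. High-fat control replicate 1 stood above the other two controls, and the lowest low-fat PFNA array, at 8.13, was barely above the highest low-fat control, at 8.12. The rise passed the test for PFOS on the high-fat diet, at 1.27 (SE 0.24, 2.41-fold, limma adjusted p = 0.02). The other 3 differences were 1.14 for PFNA on the high-fat diet (SE 0.24, adjusted p = 0.0688), 0.9 for PFOS on the low-fat diet (SE 0.24, adjusted p = 0.125) and 0.56 for PFNA there (SE 0.24, adjusted p = 0.325). In the order of group means, both control groups lay lowest (7.8 and 7.96) and overlapped, and the 4 exposed groups, from 8.52 to 9.06, overlapped from each neighbour to the next.

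Mid1ip1 encodes a small protein (MIG12) that promotes the polymerisation and activity of acetyl-CoA carboxylase. It was called in 3 of the 4 exposure comparisons, more than any other member. Low-fat controls gave 5.59, 5.55 and 5.48, low-fat PFOS arrays 6.68, 6.64 and 7.08, and low-fat PFNA arrays 6.54, 6.57 and 6.48. On the high-fat diet the controls gave 6.14, 5.77 and 5.95, the PFOS arrays 7.19, 7.03 and 6.92, and the PFNA arrays 6.02, 6.73 and 6.99. Every exposed low-fat array lay above every low-fat control, as did every high-fat PFOS array above its controls, while high-fat PFNA replicate 1 fell inside the range of the controls. Mid1ip1 rose by 1.26 with PFOS on the low-fat diet (SE 0.19, 2.39-fold, limma adjusted p = 0.00853), by 0.99 with PFNA there (SE 0.19, 1.99-fold, adjusted p = 0.024) and by 1.09 with PFOS on the high-fat diet (SE 0.19, 2.13-fold, adjusted p = 0.0132). The difference for PFNA on the high-fat diet was 0.63 (SE 0.19, adjusted p = 0.244).

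The 3 probes of Mid1ip1 did not behave alike. The other two stayed between 4.08 and 4.68 and between 4.87 and 5.4 on all 18 arrays. Their largest differences were 0.19 and 0.17, and neither was called in any comparison. When the 3 probes were averaged, the differences became 0.48 for low-fat PFOS (adjusted p = 0.133), 0.31 for low-fat PFNA (adjusted p = 0.307) and 0.41 for high-fat PFOS (adjusted p = 0.144), and all 3 calls of Mid1ip1 ended. Over the 26 alternative settings its adjusted p ranged from 0.00185 to 0.133, from 0.00617 to 0.307 and from 0.00148 to 0.144 in the same order. Every Mid1ip1 result therefore rests on 1 probe, whose position in the gene was not used here.

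**Figure D1:**
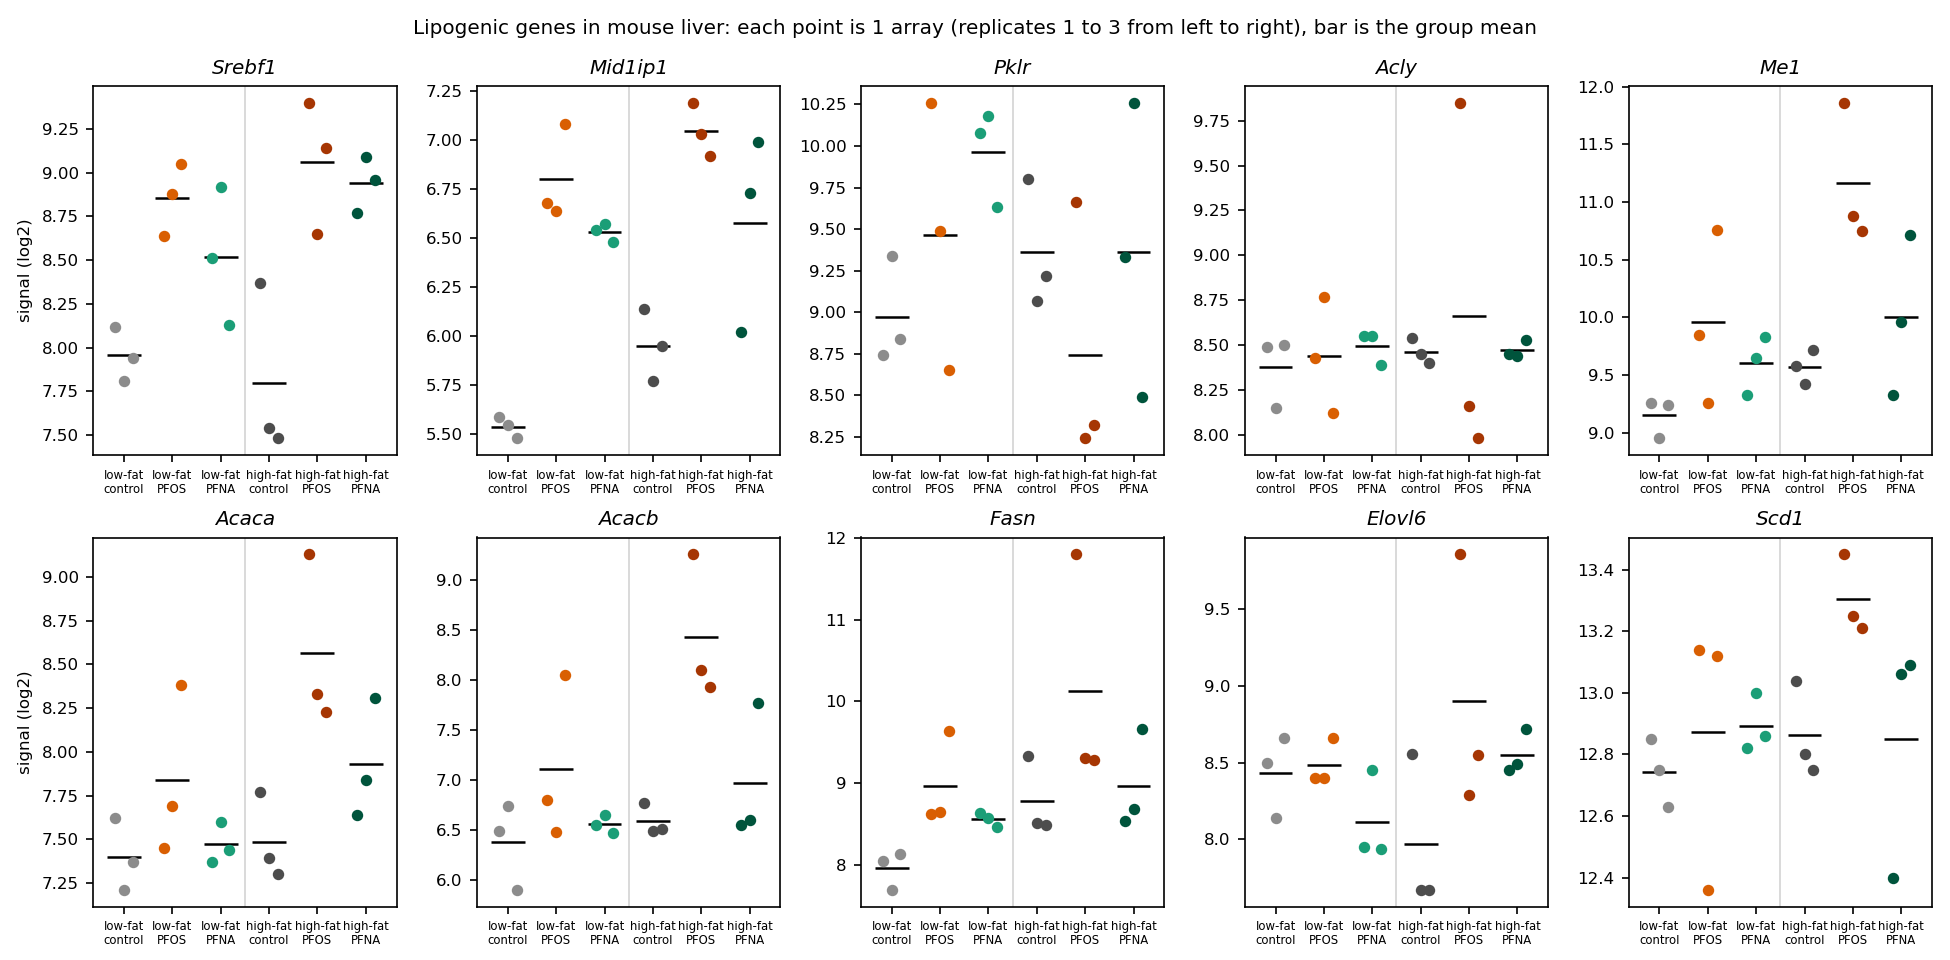
Log2 signal of the 10 lipogenic genes on each of 18 liver arrays (points, 3 per group, replicates in order) with group means (bars), each panel on its own axis. Srebf1, Mid1ip1 and Fasn separate all exposed from all control arrays on the low-fat diet, and the 5 highest arrays of Me1, Acaca, Acacb and Mid1ip1 are the high-fat PFOS arrays and replicate 3 of low-fat PFOS and of high-fat PFNA.

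The enzymes that supply carbon and reducing power did not move together. Pklr encodes liver pyruvate kinase, which makes the pyruvate from which lipogenic acetyl-CoA derives and is a classical ChREBP target. Low-fat controls read 8.74, 9.34 and 8.84, low-fat PFOS arrays 10.26, 9.49 and 8.65, and low-fat PFNA arrays 10.08, 10.18 and 9.63. High-fat controls read 9.8, 9.07 and 9.22, high-fat PFOS arrays 9.66, 8.24 and 8.32, and high-fat PFNA arrays 9.33, 10.26 and 8.49. The low-fat PFNA arrays were all above their controls, whereas the low-fat PFOS and high-fat PFNA groups each ran from below the controls' lowest array to above their highest. High-fat PFOS replicates 2 and 3, high-fat PFNA replicate 3 and low-fat PFOS replicate 3 were the 4 lowest of the 18 arrays for Pklr. The differences were 0.99 for low-fat PFNA (SE 0.44, limma adjusted p = 0.349), 0.49 for low-fat PFOS (SE 0.44, adjusted p = 0.714), 0 for high-fat PFNA (SE 0.44, adjusted p = 1) and -0.62 for high-fat PFOS (SE 0.44, adjusted p = 0.597). Single arrays moved them: high-fat PFOS was -1.08 (SE 0.44) without its replicate 1, and low-fat PFOS was 0.9 and high-fat PFNA 0.43 (each SE 0.4) without replicate 3 of each. Pklr had its lowest group mean under high-fat PFOS, whereas the other 9 genes had their highest there.

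Acly, the ATP citrate lyase gene, varied little apart from 1 array. Its 15 arrays outside high-fat PFOS lay between 8.12 and 8.77. High-fat PFOS replicates read 9.85, 8.16 and 7.98, so that this group held both the highest and the lowest array. The 4 exposure differences were between 0.01 and 0.2, each with an SE of 0.32. Without high-fat PFOS replicate 1 the difference for Acly on the high-fat diet was -0.39 (SE 0.17, limma adjusted p = 0.331).

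Me1 encodes cytosolic malic enzyme, a source of NADPH for fatty acid synthase and a known PPARA target in rodents. Low-fat controls read 9.26, 8.95 and 9.24, low-fat PFOS arrays 9.85, 9.26 and 10.76, and low-fat PFNA arrays 9.33, 9.65 and 9.83. High-fat controls read 9.58, 9.42 and 9.72, high-fat PFOS arrays 11.86, 10.88 and 10.75, and high-fat PFNA arrays 9.33, 9.96 and 10.71. All high-fat PFOS arrays were above all high-fat controls, and replicate 3 of low-fat PFOS and of high-fat PFNA reached the same level as the lower high-fat PFOS arrays. Me1 rose by 1.59 with PFOS on the high-fat diet (SE 0.36, 3.01-fold, limma adjusted p = 0.0407). The low-fat PFOS difference was 0.81 (SE 0.36, adjusted p = 0.38) and became 0.4 (SE 0.29, adjusted p = 0.619) without low-fat PFOS replicate 3 and high-fat PFNA replicate 3. With PFNA, Me1 differed by 0.45 on the low-fat diet and by 0.43 on the high-fat diet (each SE 0.36), or by 0.07 (SE 0.29) on the high-fat diet without those arrays.

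Both acetyl-CoA carboxylase genes rose with PFOS on the high-fat diet. Acaca encodes the cytosolic enzyme whose malonyl-CoA feeds fatty acid synthase, and Acacb the mitochondrial form whose malonyl-CoA restrains fatty acid entry into mitochondria. High-fat Acaca signals were 7.77, 7.39 and 7.3 in the controls, 9.13, 8.33 and 8.23 with PFOS, and 7.64, 7.84 and 8.31 with PFNA. On the low-fat diet Acaca was 7.62, 7.21 and 7.37 in the controls, 7.45, 7.69 and 8.38 with PFOS, and 7.37, 7.6 and 7.44 with PFNA. The high-fat PFOS arrays stood clear of their controls, while the other 3 exposed groups overlapped theirs. The rise of Acaca was 1.08 (SE 0.25, 2.11-fold), with a limma adjusted p of 0.0497 that lay at the threshold and ranged from 0.0103 to 0.157 over the alternatives.

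Acacb on the high-fat diet read 6.77, 6.49 and 6.51 in the controls, 9.26, 8.1 and 7.93 with PFOS, and 6.55, 6.6 and 7.77 with PFNA. On the low-fat diet it read 6.49, 6.74 and 5.9 in the controls, 6.8, 6.48 and 8.05 with PFOS, and 6.55, 6.65 and 6.47 with PFNA. Arrays fell at a level near the controls or at a higher level held by the 3 high-fat PFOS arrays and by replicate 3 of low-fat PFOS and of high-fat PFNA. Acacb rose by 1.84 with PFOS on the high-fat diet (SE 0.39, 3.58-fold, limma adjusted p = 0.0328), the largest difference among the 10 genes in the 4 exposure comparisons. The low-fat PFOS difference of 0.73 (SE 0.39, adjusted p = 0.49) was 0.26 (SE 0.31) without low-fat PFOS replicate 3 and high-fat PFNA replicate 3, and the high-fat PFNA difference of 0.38 (SE 0.39, adjusted p = 0.815) was -0.02 (SE 0.31).

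**Figure D2:**
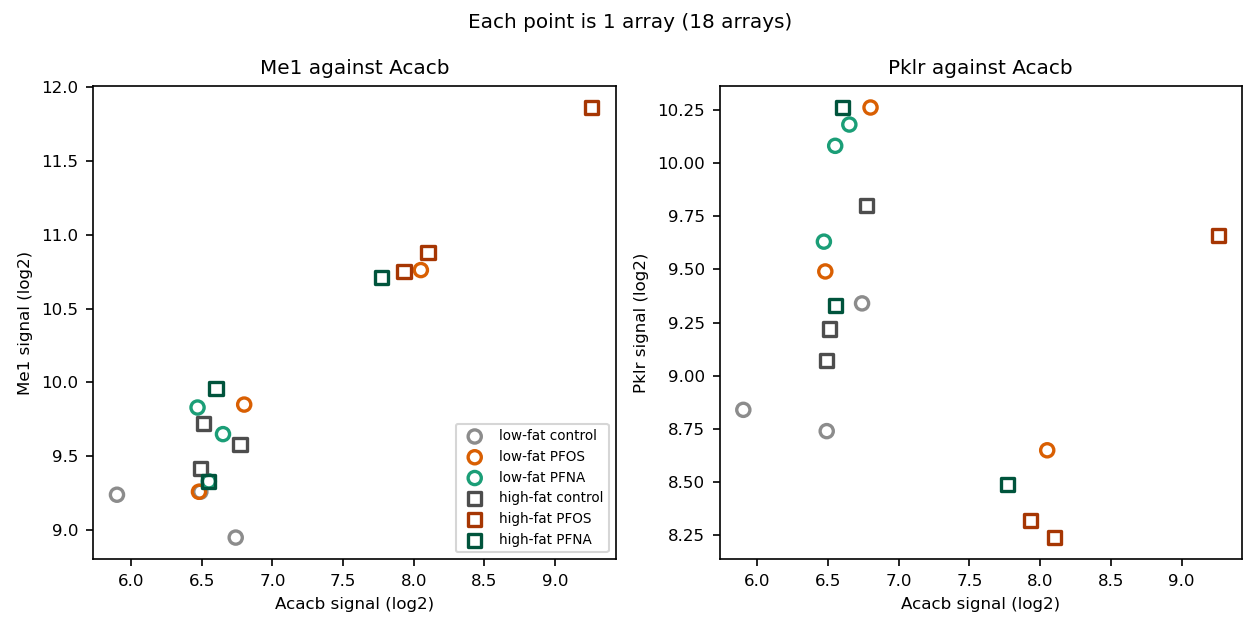
Log2 signal of Me1 (left) and Pklr (right) against that of Acacb, 1 open symbol per array, circles for the low-fat and squares for the high-fat diet, colours for the 6 groups. The 5 arrays with Acacb at 7.77 or more also hold the 5 highest Me1 signals of 10.71 to 11.86, and 4 of them hold the 4 lowest Pklr signals of 8.24 to 8.65.

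The synthase, the elongase and the desaturase gave no call. Fasn, whose product makes palmitate, read 8.05, 7.69 and 8.13 in the low-fat controls, 8.62, 8.64 and 9.63 with PFOS, and 8.63, 8.57 and 8.46 with PFNA. On the high-fat diet Fasn read 9.33, 8.51 and 8.49 in the controls, 11.8, 9.3 and 9.28 with PFOS, and 8.54, 8.68 and 9.66 with PFNA. All 6 exposed low-fat arrays were above the low-fat controls, while on the high-fat diet control replicate 1 overlapped both exposed groups. The difference for high-fat PFOS was 1.35 (SE 0.5, limma adjusted p = 0.222) and became 0.51 (SE 0.34, adjusted p = 0.571) without high-fat PFOS replicate 1. The differences were 1.01 for low-fat PFOS (SE 0.5, adjusted p = 0.441), 0.6 for low-fat PFNA (SE 0.5, adjusted p = 0.678) and 0.18 for high-fat PFNA (SE 0.5, adjusted p = 0.944).

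Elovl6, which lengthens palmitate to stearate, read 8.5, 8.14 and 8.66 in the low-fat controls and 8.56, 7.67 and 7.67 in the high-fat controls. High-fat PFOS arrays read 9.86, 8.29 and 8.55 and high-fat PFNA arrays 8.45, 8.49 and 8.72, which overlapped the high-fat controls through control replicate 1. The Elovl6 differences were 0.93 for high-fat PFOS (SE 0.31, limma adjusted p = 0.171) and 0.59 for high-fat PFNA (SE 0.31, adjusted p = 0.583). Without high-fat PFOS replicate 1 the former was 0.45 (SE 0.25, adjusted p = 0.461). On the low-fat diet they were 0.05 for PFOS and -0.32 for PFNA (each SE 0.31).

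Scd1, the desaturase that makes oleate, lay between 12.36 and 13.45 on all arrays in a table whose highest value is 14.01. High-fat PFOS arrays read 13.45, 13.25 and 13.21 and exceeded all 15 other arrays. The Scd1 difference from the high-fat controls was 0.44 (SE 0.2, limma adjusted p = 0.346), and those for low-fat PFOS, low-fat PFNA and high-fat PFNA were 0.13, 0.15 and -0.01 (each SE 0.2).

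High-fat PFOS replicate 1 was the highest of the 18 arrays for 9 of the 10 genes, all but Pklr. Its signal exceeded the next array of its own group by 2.5 for Fasn, 1.69 for Acly, 1.34 for Pklr, 1.31 for Elovl6 and 1.16 for Acacb, and by 0.2 for Scd1 and 0.16 for Mid1ip1. The heat map of differences from the low-fat controls shows that the other high-fat PFOS arrays kept part of this pattern for Me1, Acacb, Fasn and Mid1ip1. Against those controls they kept little or none of it for Acly and Elovl6. Against the high-fat controls, Elovl6 was still 0.45 higher (SE 0.25) without replicate 1. High-fat PFOS replicates 2 and 3 were close to each other, at 9.3 and 9.28 for Fasn and 10.88 and 10.75 for Me1.

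**Figure D3:**
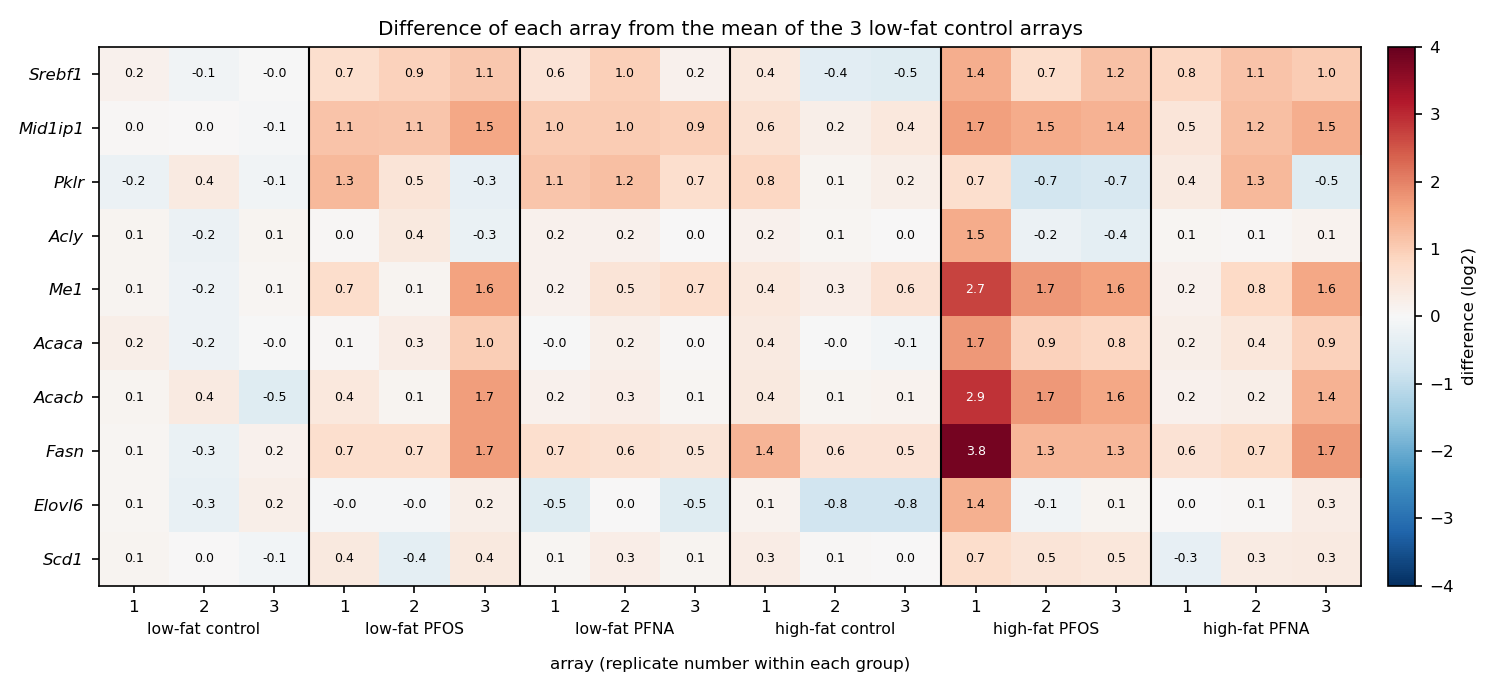
Difference in log2 signal of each of 18 arrays (columns, replicates 1 to 3 within each group) from the mean of the 3 low-fat control arrays, for the 10 genes (rows), red for higher and blue for lower. High-fat PFOS replicate 1 is the darkest column for most genes, Mid1ip1 is higher in every exposed array, and Pklr is lower in high-fat PFOS replicates 2 and 3.

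Diet alone moved none of the 10 genes past the test. Between the high-fat and low-fat controls the largest member differences were 0.82 for Fasn (SE 0.5, limma adjusted p = 0.844) and -0.47 for Elovl6 (SE 0.31, adjusted p = 0.865). The median over the 10 was 0.17, beside -0.01 over all 34472 probes. None was called, where 0.00290% of all probes were, and 1 member, Mid1ip1 at 0.41 (SE 0.19), had an unadjusted p below 0.05, beside 6.45% of all probes. The high-fat arrays did not overlap the low-fat ones and were higher for 3 genes, Fasn, Me1 and Mid1ip1, while 4.84% of all probes did the same.

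PFOS on the low-fat diet gave 1 called member of 10, Mid1ip1, and 0.281% of all probes were called higher there and 0.107% lower. All 10 differences were above 0, with a median of 0.61 beside -0.02 over all probes. At an unadjusted p below 0.05 there were 3 members, Mid1ip1, Srebf1 and Me1, beside 11.9% of all probes. The exposed arrays lay above the controls without overlap for 3 genes, Fasn, Srebf1 and Mid1ip1, beside 7.58% of all probes. In a fit to these 2 groups alone the adjusted p of Mid1ip1 was 0.0573 and no member was called.

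PFNA on the low-fat diet likewise gave Mid1ip1 alone, with 0.374% of all probes called higher and 0.191% lower. The median member difference was 0.32 beside -0.01 over all probes. At an unadjusted p below 0.05 there were 3 members, Mid1ip1, Srebf1 and Pklr, beside 12.9% of all probes. The arrays were higher without overlap for 5 genes, Fasn, Me1, Srebf1, Mid1ip1 and Pklr, beside 10.1% of all probes. Leaving out any 1 of the 6 arrays compared took Mid1ip1 to adjusted p values between 0.0699 and 0.105 and ended the call, with the difference between 0.96 and 1.02.

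PFOS on the high-fat diet gave 5 called members, all higher: Srebf1, Mid1ip1, Me1, Acaca and Acacb. Over all probes 0.632% were called higher and 0.389% lower. The median member difference was 1.09 beside -0.01 over all probes, and 8 of 10 members had an unadjusted p below 0.05, beside 13.5% of all probes. The groups did not overlap for 6 genes, the 5 called and Scd1, beside 9.71% of all probes. The count of 5 depended on single arrays, as did the count over all probes, 218 higher and 134 lower. It fell to 0 without high-fat control replicate 2, high-fat control replicate 3 or high-fat PFOS replicate 1, to 1 without high-fat PFOS replicate 2 or replicate 3, and to 2 without high-fat control replicate 1. It was 3 without any 1 of the low-fat control or low-fat PFNA arrays or high-fat PFNA replicate 2, which enter this comparison only through the shared estimate of the spread. Over all probes 93, 82 and 157 were called without high-fat control replicate 2, high-fat control replicate 3 and high-fat PFOS replicate 1, and 61 and 118 without high-fat PFOS replicates 2 and 3. Without either high-fat control replicate the differences of the 5 genes moved little, to 1.79 and 1.8 for Acacb, 1.51 and 1.66 for Me1, 1.14 and 1.11 for Srebf1, 1 and 1.09 for Mid1ip1 and 1.03 and 0.98 for Acaca. Without high-fat PFOS replicate 1 the differences were 1.42 for Acacb (adjusted p = 0.115), 1.24 for Me1 (adjusted p = 0.133), 1.1 for Srebf1 (adjusted p = 0.0722), 1.02 for Mid1ip1 (adjusted p = 0.0501) and 0.79 for Acaca (adjusted p = 0.152), all by limma.

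PFNA on the high-fat diet gave no called member, against 0.0870% of all probes called higher and 0.0261% lower, and 2 of 10 members, Srebf1 and Mid1ip1, had an unadjusted p below 0.05, beside 9.77% of all probes. The median member difference was 0.41 beside -0.01 over all probes. The groups did not overlap for Srebf1 alone, beside 6.83% of all probes. Srebf1 was called without high-fat control replicate 1, at 1.43 (SE 0.23, limma adjusted p = 0.022). It was also called when only the brighter probes were tested (adjusted p = 0.0392) and with an intensity trend in the variance prior (adjusted p = 0.044), within a range of 0.022 to 0.252 over all alternatives.

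**Figure D4:**
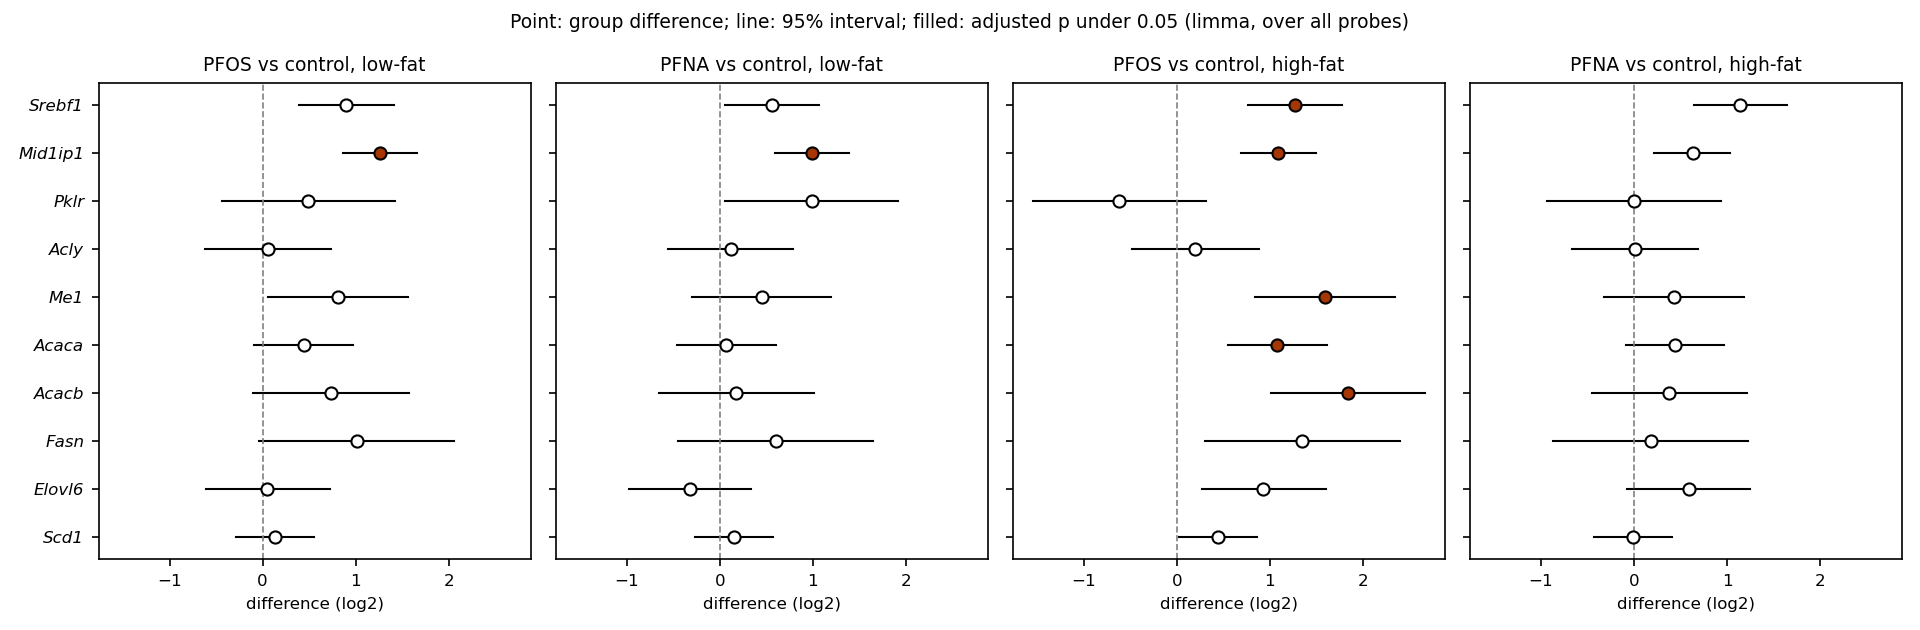
Difference in log2 signal between exposed and control arrays of the same diet (points) with 95% intervals (lines) for the 10 genes in 4 comparisons of 3 against 3 arrays, filled where the limma adjusted p is below 0.05. Mid1ip1 is filled in 3 panels, and high-fat PFOS has 5 filled genes with Acacb farthest right at 1.84.

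No member passed the test between the compounds. On the high-fat diet 9 of the 10 differences of PFNA minus PFOS were below 0, with a median of -0.46 beside -0.01 over all probes. The largest were -1.46 for Acacb (95% interval -2.29 to -0.62, limma adjusted p = 0.646), -1.17 for Fasn (-2.22 to -0.12, adjusted p = 0.659) and -1.16 for Me1 (-1.91 to -0.41, adjusted p = 0.646). Over all probes 0.00290% were called. For 6 of the 10 members the unadjusted p was below 0.05, beside 7.26% of all probes. PFNA arrays lay below PFOS arrays without overlap for 3 genes, Acacb, Scd1 and Me1, beside 5.14% of all probes. Srebf1 differed by -0.12 with an interval of -0.63 to 0.38, so that at the 95% level the carboxylic acid lay at most 0.63 below and at most 0.38 above the sulfonic acid for this gene.

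On the low-fat diet the compound differences ranged from -0.55 for Acacb (95% interval -1.39 to 0.28) to 0.5 for Pklr (-0.43 to 1.43), with a median of -0.34 beside 0.01. No member and 0% of probes were called by limma, and no member had an unadjusted p below 0.05, beside 3.92% of all probes. Mid1ip1 was the only member whose arrays did not overlap, with PFNA lower by a mean of -0.27 (-0.67 to 0.13), beside 4.36% of all probes that were lower without overlap. The low-fat interval of Fasn, -1.46 to 0.64, included the high-fat difference of -1.17.

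The diet was also compared within each compound. Under PFOS 9 of 10 members were higher on the high-fat diet, by up to 1.32 for Acacb (95% interval 0.49 to 2.15) and 1.21 for Me1 (0.46 to 1.96), and Pklr differed by -0.73 (-1.66 to 0.2). None was called by limma (smallest adjusted p = 0.613), and 0% of all probes were. At an unadjusted p below 0.05 there were 5 members, beside 7.73% of all probes. Under PFNA the differences ran from -0.6 for Pklr to 0.46 for Acaca, with 0% of probes called and no member below an unadjusted p of 0.05, beside 4.18% of all probes. The interaction of diet with PFOS was largest for Pklr, at -1.12 (-2.43 to 0.2), and for Acacb, at 1.11 (-0.07 to 2.28). The interaction of diet with PFNA was largest for Pklr at -0.99 (-2.31 to 0.32) and Elovl6 at 0.91 (-0.03 to 1.84). In both interactions 0% of probes were called, and no member had an unadjusted p below 0.05, beside 6.36% of all probes for PFOS and 5.18% for PFNA.

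Low-fat PFOS replicate 3 and high-fat PFNA replicate 3 weighed on these comparisons. Without both, PFNA minus PFOS on the high-fat diet was -1.86 for Acacb (SE 0.31, limma adjusted p = 0.0079) and -1.52 for Me1 (SE 0.29, adjusted p = 0.0171), which made 2 called members beside 1.48% of all probes. High-fat against low-fat PFOS then gave 3 called members beside 2.22% of all probes, Acacb at 1.79 (SE 0.31, adjusted p = 0.00809), Me1 at 1.61 (SE 0.29, adjusted p = 0.0101) and Acaca at 0.99 (SE 0.23, adjusted p = 0.0369). The calls over all probes rose with those of the members, from 1 to 510 and from 0 to 765. The pair was left out because its values stood apart from its groups, so these calls describe the remaining arrays and are not independent evidence.

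**Figure D5:**
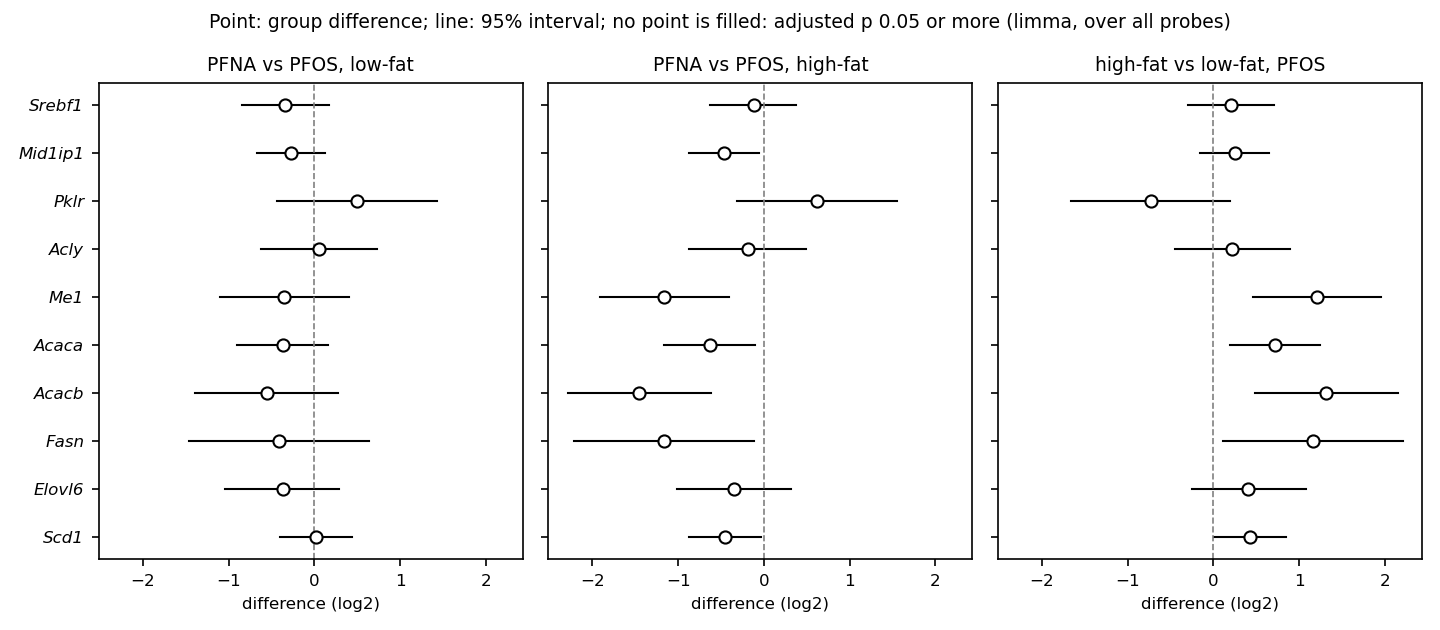
Difference in log2 signal (points) with 95% intervals (lines) of PFNA minus PFOS on the low-fat and on the high-fat diet and of high-fat minus low-fat under PFOS, for the 10 genes, 3 against 3 arrays. No point is filled, since none passed the limma adjusted p of 0.05, and Acacb, Me1 and Fasn lie farthest from 0 in both panels with high-fat PFOS arrays.

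The rest of the pathway was read from 9 lists, of which 96 of 115 genes were measured. Among 25 regulators of lipogenesis limma called none in the 4 exposure comparisons, while 7 had an unadjusted p below 0.05 for low-fat PFOS, 9 for low-fat PFNA, 7 for high-fat PFOS and 5 for high-fat PFNA. The shares of all probes at that threshold, against which this and the lists' further counts at an unadjusted p are to be read, were 11.9%, 12.9%, 13.5% and 9.77% in the same order. The lists' counts of called genes are to be read against the shares of all probes called. In that order 0.281%, 0.374%, 0.632% and 0.0870% were called higher, and 0.107%, 0.191%, 0.389% and 0.0261% lower. Thrsp, which encodes the Spot 14 partner of the Mid1ip1 protein, came closest. Its low-fat controls read 8.24, 8.98 and 7.7, against 10.25, 9.98 and 9.76 with PFOS and 10.27, 9.68 and 9.7 with PFNA. All 6 exposed arrays lay above all 3 controls, with Thrsp differences of 1.69 (SE 0.39, limma adjusted p = 0.0748) and 1.58 (SE 0.39, adjusted p = 0.0721). In these 2 comparisons 7.58% and 10.1% of all probes were higher without overlap. The list medians were between -0.03 and 0.14.

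Triglyceride assembly, with 10 genes measured, had 2 members higher under high-fat PFOS and none called elsewhere. Mogat1, a monoacylglycerol acyltransferase low in normal liver, read 5.07, 4.83 and 5.14 in the high-fat controls, 8.25, 7.69 and 8.19 with PFOS, and 5.87, 6.03 and 8.02 with PFNA. Only replicate 3 of the PFNA arrays reached the PFOS arrays. Mogat1 rose by 3.03 with PFOS (SE 0.49, limma adjusted p = 0.00935), and Gpat4, a glycerol-phosphate acyltransferase, rose by 0.7 (SE 0.16, adjusted p = 0.0384). The list's unadjusted p was below 0.05 for 3 genes in each of the other 3 exposure comparisons.

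Among 11 genes of elongation, desaturation and fatty acid activation, Elovl1, an elongase of saturated chains, rose with both compounds on the low-fat diet, by 0.72 with PFOS (SE 0.14, limma adjusted p = 0.0326) and 0.76 with PFNA (SE 0.14, adjusted p = 0.0177). Tecr, the reductase that closes each elongation cycle, rose with PFNA there, by 0.71 (SE 0.15, adjusted p = 0.0322). Under high-fat PFOS the elongase gene Elovl3 rose by 0.92 (SE 0.2, adjusted p = 0.039) and the acyl-CoA synthetase gene Acsl5 by 0.9 (SE 0.21, adjusted p = 0.0497). High-fat PFNA gave no call, with 1 gene of the list below an unadjusted p of 0.05.

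Supply genes gave 1 call among 9 measured, while 3, 2, 7 and 1 of them had an unadjusted p below 0.05 for low-fat PFOS, low-fat PFNA, high-fat PFOS and high-fat PFNA. Mpc1, a subunit of the mitochondrial pyruvate carrier, fell by 0.67 with PFOS on the low-fat diet (SE 0.14, limma adjusted p = 0.046), from 11.78, 12.05 and 11.81 to 11.38, 10.99 and 11.26. The glycolysis list, with 6 of 11 genes measured, had none called by limma in any exposure comparison, and 1 or 2 genes had an unadjusted p below 0.05 in each. Of 6 genes of malonyl-CoA use and mitochondrial entry, Slc25a20, the carnitine-acylcarnitine carrier, rose by 0.63 with high-fat PFOS (SE 0.13, adjusted p = 0.0266). Ppargc1a, a coactivator of oxidative genes, fell by 1.1 with low-fat PFNA (SE 0.2, adjusted p = 0.0163).

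The receptors' own targets were read beside the lipogenic genes. Of 11 PPARA targets, 5 rose with high-fat PFOS, led by the acyl-CoA thioesterase genes Acot1 at 2.71 (SE 0.37, limma adjusted p = 0.00218) and Acot2 at 2.61 (SE 0.43, adjusted p = 0.00935), the peroxisomal enzyme gene Ehhadh at 1.98 (SE 0.4, adjusted p = 0.0259) and the thiolase gene Acaa1b at 0.96 (SE 0.13, adjusted p = 0.00178). Low-fat PFOS gave 1, the fatty acid transporter gene Cd36 at 1.47 (SE 0.31, adjusted p = 0.046). Of all probes, 0.632% were called higher with high-fat PFOS and 0.281% with low-fat PFOS. Neither PFNA comparison gave any, where 0.374% of all probes on the low-fat and 0.0870% on the high-fat diet were called higher. With PFNA 1 gene on the low-fat and 5 genes on the high-fat diet were below an unadjusted p of 0.05. With PFOS 5 of the 11 on the low-fat and 10 on the high-fat diet were below it, with list medians of 0.48 and 0.91. Ehhadh read 13.17 in low-fat PFOS replicate 3 and 13.18 in high-fat PFNA replicate 3, inside the range of 12.91 to 13.26 of the high-fat PFOS arrays, and 11.05 to 11.7 on the remaining 13 arrays.

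Of 9 CAR and PXR genes, 7 were called higher with PFOS and 7 with PFNA on the low-fat diet, and 2 and 4 on the high-fat diet. Over all probes 0.281%, 0.374%, 0.632% and 0.0870% were called higher in that order. At an unadjusted p below 0.05 there were 8, 8, 7 and 7 of the 9. Neither interaction called any of them, where 0% of all probes were called. In the interaction of diet with PFOS 3 of the 9 had an unadjusted p below 0.05 (list median -0.81), beside 6.36% of all probes. In that with PFNA 4 did (list median -0.55), beside 5.18%. The list's mean signal was 7.9 to 8.36 in low-fat and 8.48 to 8.76 in high-fat controls. Exposed arrays lay at 9.76 to 10.56 and at 9.75 to 10.52. Cyp2b10, the standard CAR target, was at 3.81 to 4.58 in all 6 control arrays and at 7.26 to 10.63 in all 12 exposed ones. It rose by 5.2 and 5.71 with PFOS and PFNA on the low-fat diet and by 4.39 and 5.26 on the high-fat diet (each SE 0.67, limma adjusted p = 0.00391, 0.00125, 0.00621 and 0.00193). The 5 arrays with the highest Ehhadh also held the 5 highest signals of Mid1ip1, Me1, Acaca and Acacb. On the exposed low-fat arrays outside those 5, Mid1ip1, Fasn, Pklr and Srebf1 lay above all low-fat controls. For Srebf1 the margin was as small as 8.13 against 8.12.

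Cholesterol synthesis, the other output of the SREBP family, was measured by 9 genes. None was called in the diet or exposure comparisons by limma. The list's median was 1.32 between the high-fat and low-fat controls, where 7 genes had an unadjusted p below 0.05, and -0.84 for high-fat PFNA, where 4 did. It was 2, 2 and 1 genes for low-fat PFOS, low-fat PFNA and high-fat PFOS. Sqle, the squalene epoxidase gene, read 4.91, 5.02 and 4.6 in the low-fat and 6.66, 6.68 and 6.92 in the high-fat controls, a difference of 1.91 (SE 0.38, adjusted p = 0.288). The lipogenic genes had a median of 0.17 in that same diet comparison.

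The 8 genes whose signal most resembled the mean standardised signal of the 10 over the 18 arrays, among 12929 genes with a signal above the median probe, were Pgrmc2 (Pearson r = 0.94), Rdh11 (0.917), Pmvk (0.904), St3gal6 (0.891), Ano10 (0.878), Nek2 (0.869), Haus7 (0.864) and Gpam (0.864). All 8 had their highest array in high-fat PFOS replicate 1 and their lowest in a low-fat control, so that all share that array as their upper end. Gpam encodes the mitochondrial glycerol-phosphate acyltransferase, the entry step of triglyceride synthesis, and read 11.34 on that array and 9.59 to 10.6 on the other 17.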

How the data were processed

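The deposited table holds 34472 probes on 18 arrays. Per the submitters' processing notes the values came from Transcriptome Analysis Console, whose version, background correction, normalization and logarithm base were not stated in any source used here. As deposited by the authors, the values ran from 0.91 to 14.01 and were taken as log2 signal, so every fold given rests on that base. The array annotation named 1 gene for 23521 probes, several for 1814 and none for 9137.

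A mean per group was fitted to all 18 arrays with limma 3.58.1 (R 4.3.3, empirical Bayes, 12 residual and 5.21 prior degrees of freedom). The 11 contrasts were each adjusted by the Benjamini-Hochberg method over all probes and called at an adjusted p below 0.05. Unadjusted p values come from the same fit. The p values test a difference of group means against the spread between biological replicates, which was estimated jointly over the 6 groups and moderated by empirical Bayes. For arrays their number, 3 per group, limits the precision. The members and lists were chosen with earlier results of these data known. All 10 members are named, and from each list up to 4 called genes by size, or up to 2 where none was called. Fabp4, Cidea and Adipoq are named as the markers that show the list's makeup. Alternatives were quantile normalization, brighter probes only, averaged probes, the compared groups alone, an intensity trend, array weights, a replicate block and arrays left out. Promoters came from RefSeq for 9 of the 10 members.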

Additional observations from a re-analysis of the deposited data

How the results depend on the processing

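No value turned its sign among the results that passed the test. For high-fat PFOS the count of called members was 5. It was 3 in a fit to the compared groups alone and 0 to 5 with 1 array left out. It was 4 with quantile normalization, with averaged probes and with the replicate block, under which Acaca had an adjusted p of 0.0558. For low-fat PFOS the count of 1 became 0 with averaged probes and in the fit to the compared groups alone, and stayed 1 with each array left out. For low-fat PFNA the count of 1 became 0 with averaged probes and was 0 to 1 with 1 array left out. For high-fat PFNA the count of 0 became 1 with brighter probes only and with the intensity trend, and was 0 to 1 with 1 array left out. Without low-fat PFOS replicate 3 and high-fat PFNA replicate 3, the count was 2 for PFNA against PFOS on the high-fat diet and 3 for high-fat against low-fat under PFOS, both 0 otherwise, while 510 and 765 of all probes were called there, against 1 and 0. The cause was not tested. Same-numbered replicates did not deviate together between the control groups or between exposed and control groups of the same diet (correlations of -0.07 to 0.04). Exposed groups were not checked against each other. Low-fat PFOS replicate 3 and high-fat PFNA replicate 3, which share a number, lay at 32.9 and 32.4 on the first principal component, apart from their groups. Whether the numbers pair samples of exposed groups was not tested. The replicate block left the other counts of called members as they were. The number of arrays, 3 per group, and a missing background level limit what the dimmer probes can show.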
